A study of Homo sapiens with 12 samples.

Results

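The genes that encode the proteins of the cytosolic ribosome were examined for peaks of YTHDF1, RNF2 and H2AK119ub in human embryonic stem cells. Members were protein-coding RefSeq genes (hg38) with symbols RPL or RPS followed by a digit, or RPLP0, RPLP1, RPLP2 or RPSA, without the RPS6K kinases and without paralogs that carry an L after the number. The rule took 83 of 20037 coding genes on the autosomes, X and Y. Of these, 46 encode proteins of the large subunit and 33 proteins of the small subunit. The other 4 were the readthrough loci RPS10-NUDT3, RPL17-C18orf32 and RPL36A-HNRNPH2 and RPS19BP1, whose product binds a ribosomal protein and is none itself. Each readthrough locus shares a gene end with a member, so its peaks there are not independent of that member's.

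Chromatin immunoprecipitation followed by sequencing (ChIP-seq) had been done on cells of H1, an established line of human embryonic stem cells, grown in mTESR1 medium. Untreated wild-type cells gave YTHDF1, RNF2, H2AK119ub and input libraries, and cells treated with YTHDF1 shRNA gave YTHDF1 and input libraries, in 2 biological replicates each. The authors merged the replicates of each antibody into 1 peak list, so no spread between replicates and no test between conditions could be had, and the sequencing depth behind a peak is unknown. Wild-type cells carried no shRNA, so delivery of an shRNA and loss of YTHDF1 cannot be told apart. All cells came from 1 line, and the lists hold no RNA, so the labelled cell type was not checked against the expression of its markers.

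Ribosomal protein genes are short, strongly transcribed housekeeping genes, and their mRNAs begin with a tract of pyrimidines, the terminal oligopyrimidine or TOP sequence, through which their translation responds to nutrients. Polycomb repressive complex 1 (PRC1) contains RNF2, which ubiquitinates histone H2A at a lysine near its tail to give H2AK119ub, a mark best known from silent developmental genes. YTHDF1 is a reader of N6-methyladenosine on RNA, and the series asks how it relates to PRC1 on chromatin.

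The sequences around the starts of 6 members are shown because they hold a run of pyrimidines near the start and because they span the range of peaks seen. RPS23 and RPL38 had the strongest YTHDF1 peaks near a start, RPL31 and RPS13 the highest RNF2 fold enrichment there, and RPL24 and RPL36A none of the 3 features. Each stretch runs 5′ to 3′ on the gene's strand over 100 bases (RefSeq, GRCh38.p14), and base 71 is the first of the transcript. Capitals mark the longest unbroken run of C and T that reaches within 10 bases of the start. This run need not begin at the first base of the transcript, and at RPL38 it begins at base 9 of the transcript.
RPS23 (chr5:82278325-82278424, minus strand): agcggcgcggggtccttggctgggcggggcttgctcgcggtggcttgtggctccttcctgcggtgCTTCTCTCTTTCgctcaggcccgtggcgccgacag
RPL38 (chr17:74203608-74203707, plus strand): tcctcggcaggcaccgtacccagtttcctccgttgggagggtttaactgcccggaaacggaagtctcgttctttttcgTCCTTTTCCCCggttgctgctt
RPL31 (chr2:101002219-101002318, plus strand): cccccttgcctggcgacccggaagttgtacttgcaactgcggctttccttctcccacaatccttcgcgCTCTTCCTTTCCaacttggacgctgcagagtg
RPS13 (chr11:17077638-17077737, minus strand): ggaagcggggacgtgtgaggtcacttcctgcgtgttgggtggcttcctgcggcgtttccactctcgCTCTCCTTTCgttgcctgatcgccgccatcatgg
RPL24 (chr3:101686689-101686788, minus strand): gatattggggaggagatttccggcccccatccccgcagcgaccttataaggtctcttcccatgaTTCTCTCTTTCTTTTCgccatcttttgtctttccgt
RPL36A (chrX:101390941-101391040, plus strand): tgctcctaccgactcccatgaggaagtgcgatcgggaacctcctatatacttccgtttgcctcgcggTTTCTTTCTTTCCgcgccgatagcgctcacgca

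The first question was how many members carried each feature. Most ribosomal protein genes carried RNF2 and H2AK119ub at an end. Over the full lists and all gene lengths their shares lay close to those of coding genes. An RNF2 peak lay within 2 kb of an end at 61 of 83 members (73.5%, exact 95% binomial interval 62.7 to 82.6%), beside 67.1% of all coding genes. An H2AK119ub island did so at 66 members (79.5%, 69.2 to 87.6%), beside 76.0%. YTHDF1 was at 21 members (25.3%, 16.4 to 36.0%), beside 29.1%. Each of these 3 intervals holds the share of all coding genes. For RNF2 and H2AK119ub the comparison depended on peak strength and gene length. In the better-scoring 50% of the H2AK119ub list, 46 members had an island (55.4%, beside 64.7%). Among genes of at most 5 kb, H2AK119ub was at 36 of 39 members (92.3%, beside 61.2%). In the better-scoring 50% of the RNF2 list, 27 members had a peak (32.5%, beside 52.3%), while among genes of at most 5 kb RNF2 was at 33 of 39 members (84.6%, beside 48.6%). Intervals cover counting error only, and no test against other genes was made, since neighbouring genes share peaks and the genes are not replicates.

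Within 500 bp the picture was similar. RNF2 was at 58 members (69.9%, beside 64.0% of coding genes), H2AK119ub at 66 (79.5%, beside 74.2%) and YTHDF1 at 15 (18.1%, beside 19.1%). Within 5 kb, YTHDF1 was at 33 members (39.8%, beside 42.3%). The knockdown YTHDF1 list had a peak within 2 kb at 0 of 83 members, beside 0.529% of all coding genes. Within 500 bp it also had 0, beside 0.419%. Here and for other counts of 0, a limit of 3 counts was used, which allows a share of up to 3.61% of 83 members. The exact 95% interval reaches 4.35%. That list held 226 peaks in all against 44498 in the wild type, and its lowest −log10 q was 4.01 against 1.5, so the lists do not share a threshold.

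**Figure D1:**
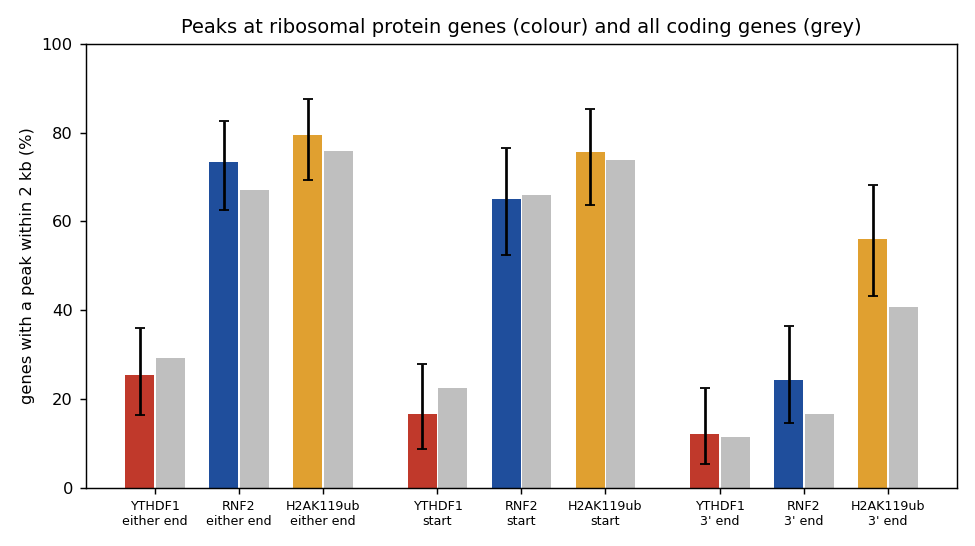
Share of genes with a peak within 2 kb of either end, of the start and of the 3′ end, in percent. Coloured bars are ribosomal protein genes with exact 95% binomial intervals (83 genes for either end, 66 for start and 3′ end) and grey bars all coding genes. The coloured and grey bars lie close at either end and at the start, and H2AK119ub is at 56.1% of members against 40.8% of coding genes at the 3′ end.

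The features came in combinations. RNF2 and H2AK119ub lay together at 54 members (65.1%, beside 64.3% of coding genes). RNF2 and H2AK119ub without YTHDF1 marked 37 members (44.6%, beside 40.1% of coding genes), and all 3 features marked 17 (20.5%, beside 24.2%). H2AK119ub alone was at 9 members (10.8%, beside 8.92%), among them RPL11, whose product binds the p53 regulator MDM2 outside the ribosome, and RPS27A, which is made as a fusion with ubiquitin. RNF2 alone was at 6 (7.23%, beside 2.31%), namely RPL5, the partner of RPL11 in that binding, and RPL34, RPL37, RPS26, RPL21 and RPS4X. RPL9 had YTHDF1 and RNF2 without H2AK119ub (beside 0.519%). YTHDF1 and H2AK119ub without RNF2 marked RPS23, RPL30 and RPL27A (beside 2.75%). YTHDF1 alone was at 0 members, which allows up to 3.61%, beside 1.71% of coding genes.

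None of the 3 features lay within 2 kb of an end at 10 members (12%, beside 19.5% of coding genes). RNF2 and H2AK119ub were absent at the same 10, beside 21.2% of coding genes. They were RPS7, RPL37A, RPL24, RPS15A, RPS6, the ribosomal target of the S6 kinases, and on the sex chromosomes RPL36A with its readthrough locus, RPL39, RPS4Y1 and RPS4Y2. The X and Y chromosomes hold 7 members, and RNF2 was at 1 of them (RPS4X, 3.50-fold) and H2AK119ub at 1 (RPL10, an island of 6600 bp). Of all coding genes on X or Y, 26.0% had RNF2 and 32.9% H2AK119ub. Of the 12 members on chromosome 19, 11 had RNF2 and 12 H2AK119ub, beside 68.6% and 84.4% of the coding genes there.

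The promoter table gave the strand of 66 members and of 15843 coding genes, which allowed the start and the 3′ end to be told apart. RNF2 was at the start rather than the 3′ end. Within 500 bp, RNF2 was at the start of 42 of 66 members (63.6%, interval 50.9 to 75.1%, beside 63.7% of coding genes) and at the 3′ end of 5 (7.58%, 2.51 to 16.8%, beside 9.62%). An RNF2 peak covered the first base of the gene at 41 members (62.1%, beside 61.4%) and an H2AK119ub island at 44 (66.7%, beside 69.6%). Within 2 kb, RNF2 was at the start of 43 members (65.2%, beside 65.9%) and at the 3′ end of 16 (24.2%, 14.5 to 36.4%, beside 16.6%). H2AK119ub was within 500 bp of the start at 48 members (72.7%, beside 72.5%) and of the 3′ end at 31 (47.0%, beside 34.5%).

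At the 3′ end, the share of H2AK119ub within 2 kb was 37 of 66 (56.1%, 43.3 to 68.3%), and the 40.8% of all coding genes lay below this interval. Ribosomal protein genes are short, with a median length of 5035 bp against 24115 bp. Among genes of at most 10 kb, the 3′ end had H2AK119ub at 33 of 53 members (62.3%, 47.9 to 75.2%), beside 57.4% of coding genes of that length. Under this ceiling of 10 kb the members' interval thus held the share of other genes. Under one of 5 kb, H2AK119ub lay within 2 kb of either end at 36 of 39 members (92.3%, 79.1 to 98.4%), beside 61.2% of coding genes, which lies below the interval. RNF2 lay within 2 kb of the start of 35 of these 53 members (66.0%, 51.7 to 78.5%, beside 54.4%) and of the 3′ end of 14 (26.4%, beside 30.3%). A single island covered the whole gene at 17 of 83 members (20.5%, beside 14.0%), and among genes of at most 10 kb at 16 of 69 (23.2%, 13.9 to 34.9%, beside 38.1%). The direction of that difference thus turned under the ceiling of 10 kb.

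RNF2 peaks at members were smaller and weaker than those at coding genes as a whole. Within 500 bp of the start, the strongest peak had a median of 3.60-fold over 1099 bp at 42 members, against 4.76-fold over 1858 bp in coding genes. At either end, the authors' fold enrichment of the strongest RNF2 peak at an end had a median of 3.59 over the 61 members with a peak (quartiles 3.23 and 4.17), against 4.91 over the 13445 coding genes with one. The median width was 1092 bp against 1922 bp. Over all RNF2 peaks of the list, at genes or not, the medians were 3.74-fold and 1347 bp, nearer to those of members. A peak of at least 5-fold was at 10 of 83 members (12%, interval 5.93 to 21.0%), beside 32.4% of coding genes. A peak of at least 10-fold was at 1 member (beside 7.94%), and a peak of at least 5 kb at 0 members, which allows up to 3.61%, beside 8.67%.

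Low RNF2 enrichment was not seen at ribosomal protein genes alone. The 77 mitochondrial ribosomal protein genes, which serve a separate ribosome, had RNF2 at 57 (74.0%) with a median of 3.67-fold over 1202 bp. The 40 proteasome subunit genes, another set of housekeeping genes for an abundant complex, had it at 30 (75%) with a median of 3.62-fold over 1342 bp. The 10 translation elongation factor genes, which work on the same ribosome, had it at all 10, with a median of 4.30-fold over 2103 bp. Among these, EEF1A1, which brings aminoacyl-tRNA to the ribosome, had 4.02-fold and EEF2, the translocase, 4.03-fold. The 22 ribosome assembly factor genes had RNF2 at 19 (86.4%) with a median of 4.03-fold, as had 15 of 17 other genes with TOP mRNAs (88.2%). The lists share genes, so their values are not independent. EEF1A1, EEF1B2, EEF1D, EEF1G and EEF2 stand among both the elongation factors and the other TOP genes. NPM1 stands among both the other TOP genes and the assembly factors. All lists were written with earlier results of these data known, and no difference between them was tested.

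**Figure D2:**
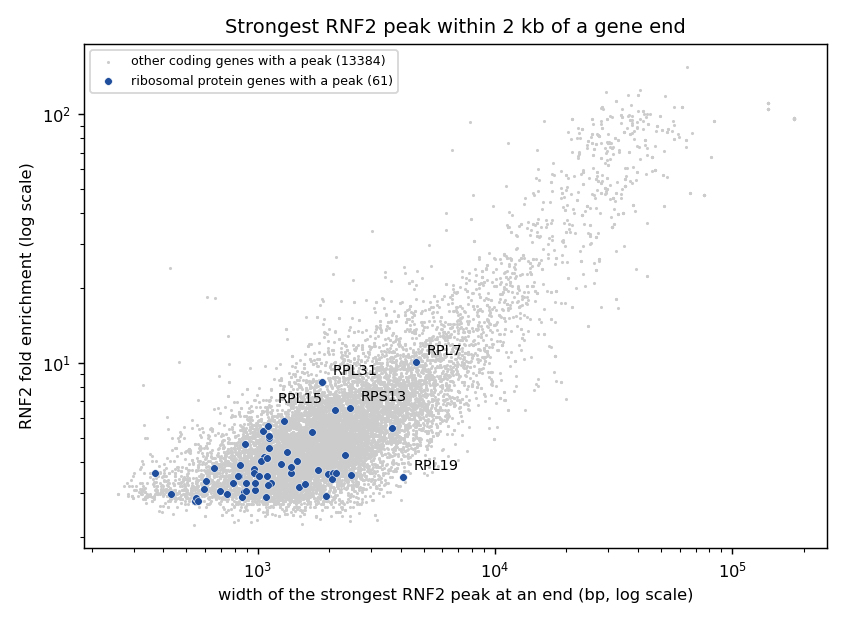
Fold enrichment (authors' value, log scale) against width (bp, log scale) of the strongest RNF2 peak within 2 kb of a gene end, 1 point per gene. The 61 ribosomal protein genes (blue) sit at the lower left of the other coding genes with a peak (grey), and RPL7 at 10.1-fold is the highest of them.

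The highest RNF2 enrichment at a member was at RPL7, a large-subunit protein, where a 10.1-fold peak of 4633 bp lay at chromosome 8, 73293516 to 73298148. It also held an end of the neighbouring gene RDH10, a retinol dehydrogenase of retinoic acid synthesis, and it overlapped a YTHDF1 peak that lay more than 2 kb from RPL7. RPL31 followed with 8.40-fold over 1870 bp (chromosome 2, 101000728 to 101002597), and RPS13 with 6.59-fold over 2445 bp (chromosome 11, 17076664 to 17079108). RPL15 had 6.48-fold and RPS21 5.82-fold. Peaks at these last 4 genes covered the gene start and held no end of another coding gene.

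Several of the wider peaks also held an end of a neighbouring gene. RPL19 had a peak of 4096 bp at 3.47-fold that also held an end of CACNB1, a calcium channel subunit gene, and its summit lay at -2716 bp from the start of RPL19. RPL28 had one of 3689 bp at 5.47-fold that held an end of TMEM238. The peak of 2841 bp at RPL23A held an end of TLCD1. Of the 78 different RNF2 peaks within 2 kb of members, 27 held an end of another coding gene, and 70 overlapped an H2AK119ub island. Neither share was computed over all RNF2 peaks, so these counts do not set members apart from other genes.

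The landmark members spread over this range. RPLP0, the base of the ribosomal stalk, had RNF2 of 4.98-fold over its start, above the upper quartile of members, and RPS19, the gene most often mutated in Diamond-Blackfan anaemia, 3.27-fold over 1585 bp. RPL13A, also known as a regulator of inflammatory mRNA translation, had 3.29-fold over 893 bp. RPSA, the laminin receptor precursor, had 2 peaks, of 3.04-fold upstream and of 3.06-fold over its start. The range over all 61 members was 2.78-fold to 10.1-fold.

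The RNF2 summits stood in a narrow zone upstream of the start. Among the 43 members with an RNF2 peak within 2 kb of the start, the summit of the strongest peak lay upstream at 35 (81.4%, interval 66.6 to 91.6%), beside 45.2% of 10446 coding genes. The median position was -150 bp (quartiles -212 and -40), against 36 bp in coding genes, where negative values are upstream. In coding genes of at most 10 kb the share upstream was 46.3%. Within 200 bp of the start lay 62.8% of the members' summits, beside 46.0% in all coding genes. The strongest peaks reached a median of 658 bp upstream and 391 bp downstream of the start at members, against 788 and 1016 bp in all coding genes.

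Single genes show the same layout. The summit lay at -223 bp at RPL31, -187 bp at RPS13, -176 bp at RPS21, -235 bp at RPLP0 and -204 bp at RPL13A. RPS3A, RPL34, RPS12 and RPL27 lay between -206 and -178 bp. Downstream summits were at RPL15 (279 bp), RPLP1 (461 bp), RPL36 (129 bp) and RPL41 (1920 bp), and those of RPL22, RPS15, RPSA and RPL9 lay 16 to 29 bp after the start. The summits of RPL19 and RPL28 lay farthest upstream, at -2716 and -1959 bp.

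The share upstream was as large among weak peaks and somewhat smaller away from neighbours. Among peaks under 5-fold the summit was upstream at 30 of 36 members (83.3%) and 48.3% of coding genes. Without the members that had an end of another coding gene within 2 kb upstream, it was upstream at 20 of 26 (76.9%, 56.4 to 91.0%), beside 41.1% of coding genes chosen in the same way. With the listed start nearest to the summit in place of the outer gene end, it was 83.7% beside 53.4%. Mitochondrial ribosomal protein genes had 28 of 50 summits upstream (56.0%, 41.3 to 70.0%), proteasome genes 17 of 26 (65.4%, 44.3 to 82.8%) and other genes with TOP mRNAs 8 of 10 (80.0%, 44.4 to 97.5%). Ribosome assembly factor genes had 11 of 15 (73.3%, 44.9 to 92.2%) and elongation factor genes 6 of 8 (75%, 34.9 to 96.8%). The intervals of all 5 lists overlap that of the ribosomal protein genes. The shares of mitochondrial ribosomal protein and proteasome genes lay below the members' interval of 66.6 to 91.6%. The members' 81.4% lay above the interval of the mitochondrial list and within those of the others. No difference was tested. Elongation factor, TOP and assembly factor lists share genes, as given above, so their shares are not independent.

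**Figure D3:**
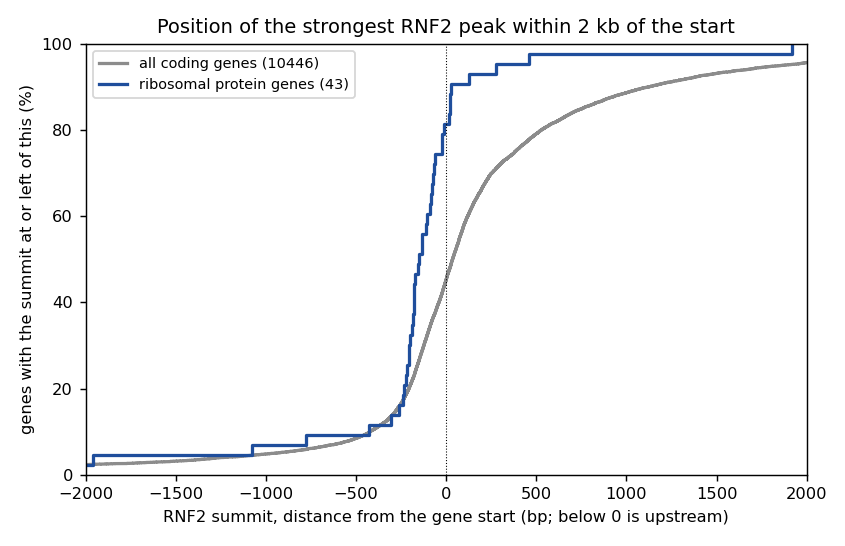
Cumulative share of genes (percent) by the distance in bp from the gene start to the summit of the strongest RNF2 peak within 2 kb of it, with values below 0 upstream. The blue line (43 ribosomal protein genes) climbs steeply just before 0 and stands at 81.4% there, while the grey line (10446 coding genes) stands at 45.2%; the summit of RPL19, at -2716 bp, lies left of the axis.

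**Figure D4:**
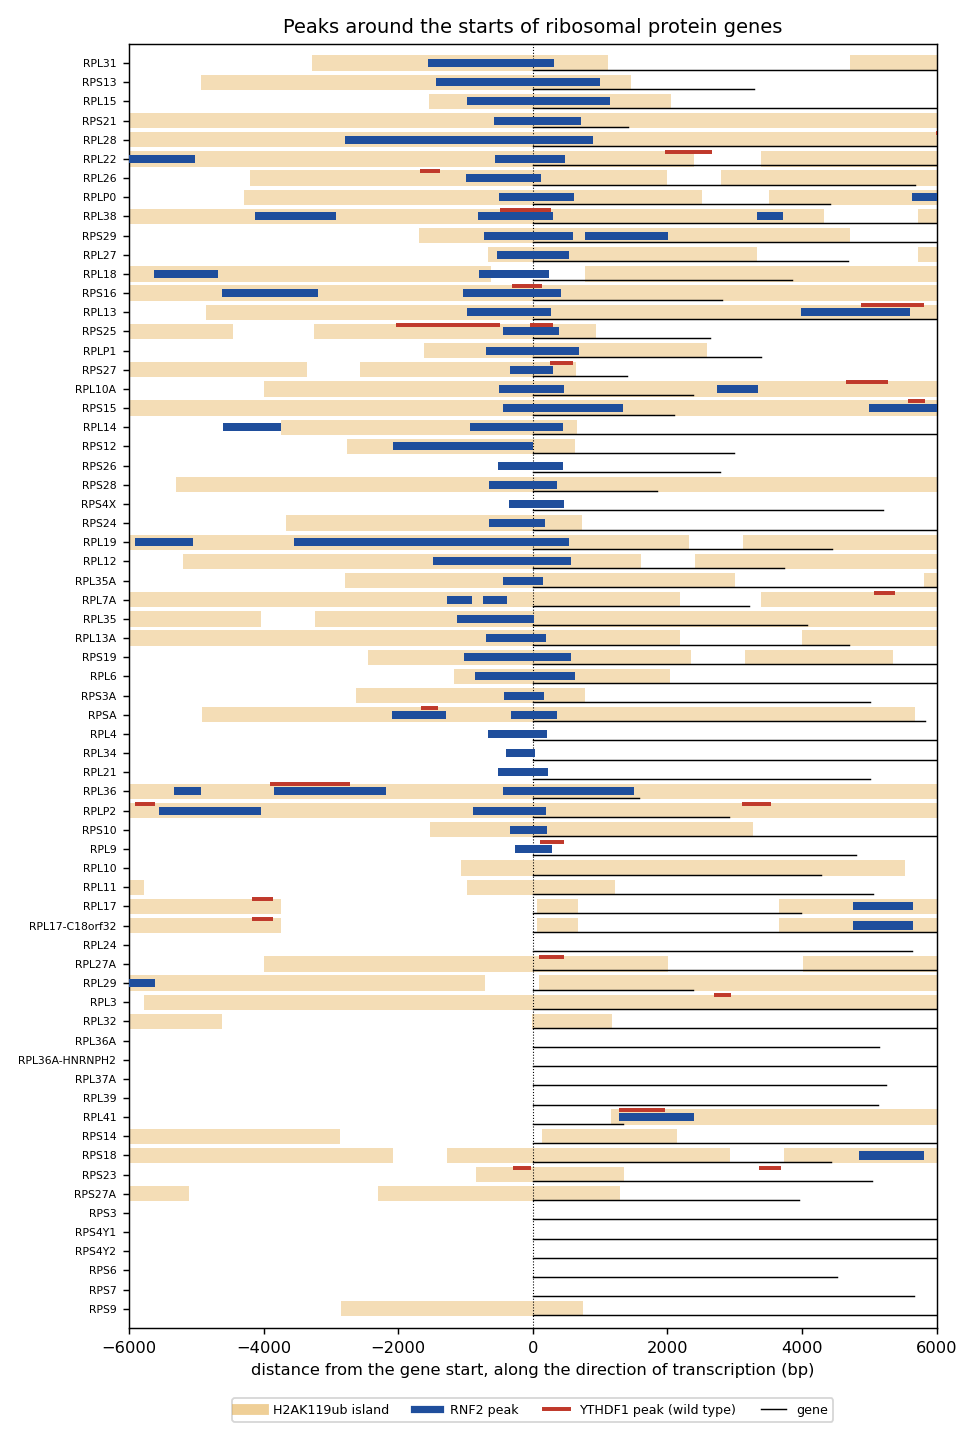
Peaks within 6 kb of the start of the 66 members with a listed start, 1 row per gene, sorted by RNF2 fold enrichment within 500 bp of the start, with distance in bp along the direction of transcription. RNF2 peaks (blue) cover the start at 41 members, H2AK119ub islands (pale orange) usually extend to both sides of them, and YTHDF1 peaks (red) are few and scattered.

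H2AK119ub islands at members ranged from 600 bp to 162 kb, with a median of 6400 bp for the strongest island of each gene, against 7600 bp for coding genes with one. In the better-scoring 50% of the list that order turned, with 14800 bp at 46 members against 9400 bp. Fewer members than coding genes had an island of that part of the list (55.4%, beside 64.7%). An island of at least 10 kb was at 29 members (34.9%, beside 32.4% of coding genes) and one of at least 50 kb at 8 (9.64%, 4.25 to 18.1%, beside 5.63%). The longest were in gene-dense stretches. RPS2, on chromosome 16, lay in an island of 162.4 kb with ends of 14 other coding genes, and RPS15, on chromosome 19, in one of 151.0 kb with ends of 9 others. RPS19BP1 lay in one of 146.2 kb, RPLP2, of the ribosomal stalk, in one of 121.0 kb and RPL28 in one of 80.8 kb. On chromosome 19 the median island at the 12 members was 27.3 kb, against 5.6 kb at the members on the other autosomes. The medians of all coding genes on these chromosomes were not computed, so a trait of the chromosome and one of the members cannot be told apart. The island scores are capped, so lengths and not scores are given. Where islands of a gene tied at the cap, that with the lowest coordinate was taken as the strongest. At RPL19 this was an island of 10.8 kb and not one of 45.2 kb.

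YTHDF1 peaks at members were weak. The 21 members had 23 peaks, with fold enrichments from 2.55 to 3.51 and a −log10 q from 1.51 to 3.31, where the list begins at 1.5. The median fold enrichment of the strongest peak was 2.95 at members and 2.95 in the 5838 coding genes with a YTHDF1 peak. Peaks with a −log10 q of 4 or more lay at 0 of 83 members, which allows up to 3.61%, beside 2.41% of coding genes. The difference from other genes was therefore not detectable at this number of genes.

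At starts, YTHDF1 lay within 500 bp at 7 of 66 members (10.6%, 4.37 to 20.6%, beside 17.0% of coding genes) and covered the first base at 3 (4.55%, 0.947 to 12.7%, beside 11.1%). These 3 were RPL38, RPS16 and RPS25. RPL38, a large-subunit protein known for its role in the translation of Hox mRNAs, had a 3.45-fold peak at chromosome 17, 74203184 to 74203954, over the stretch printed above. RPS16 had 2.55-fold and RPS25, which is known for a role in initiation at internal ribosome entry sites, 2.94-fold over its start and 2.95-fold farther upstream. All 3 starts also lay under RNF2 and H2AK119ub.

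The other 4 lay beside the start. RPS23, a protein of the decoding centre, had a 3.23-fold peak that spanned -297 to -20 bp from its start (chromosome 5, 82278374 to 82278651), with H2AK119ub and without RNF2. RPS27, RPL9 and RPL27A had peaks that began 261, 104 and 98 bp into the gene, at 2.87-fold, 2.88-fold and 3.10-fold. RPSA and RPL26 had peaks with summits at -1546 and -1514 bp, of 2.64-fold and 2.70-fold. Within 2 kb of the start, YTHDF1 was at 11 of 66 members (16.7%, 8.63 to 27.9%, beside 22.5%). The intervals of the 500 bp and 2 kb counts hold the share of coding genes.

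At 3′ ends, YTHDF1 lay within 2 kb at 8 of 66 members (12.1%, 5.38 to 22.5%, beside 11.4% of coding genes). RPL13 had a 3.17-fold peak inside the gene near its 3′ end. RPL4, a protein of the exit tunnel, had 3.14-fold and RPLP2 3.03-fold past the 3′ end. RPS24 had 3.09-fold and RPL7A 2.95-fold past it, and RPS23 had a further peak of 2.74-fold inside the gene. RPL41, the shortest member at 1335 bp, had 3.51-fold, the highest of the 23, in a peak across its 3′ end that also held an end of ZC3H10. The peak of RPS27 given above also lay within 2 kb of its 3′ end, which makes up the 8. RPL22 had a 2.82-fold peak inside the gene, within 2 kb of its start and not of its 3′ end. Among the members without a listed start, RPL23A had 3.36-fold, RPS20 3.03-fold, RPL30 2.87-fold and RPS19BP1 2.80-fold. Of the 23 peaks, 11 overlapped an RNF2 peak, 19 an H2AK119ub island and 3 neither. The same shares over all YTHDF1 peaks were not computed, so these counts do not set members apart from other genes.

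Over the whole gene with 2 kb either side, YTHDF1 was at 27 of 83 members (32.5%, 22.7 to 43.7%), beside 54.1% of coding genes. Among genes of at most 10 kb it was at 21 of 69 members (30.4%, 19.9 to 42.7%), beside 29.4% of coding genes. The lower share over whole genes was thus not seen under this ceiling.

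The promoters of members shared features that the symbols do not fix. A run of at least 8 C or T that reached within 10 bases of the start was found at 61 of 82 listed starts of members (74.4%, 63.6 to 83.4%), beside 15.3% of 22183 starts of coding genes. Such a run need not begin at the first base of the transcript. RPL17 and RPL36A each share a start with their readthrough locus, and some members have several listed starts. The starts are therefore not independent, which the intervals do not take into account. The letters CCGGAAG, of the type that ETS factors bind, stood on either strand of the 300 bases at 26 starts (31.7%, 21.9 to 42.9%), beside 12.8%. AAGATGGC, of the type that YY1 binds, stood at 6 (7.32%, 2.73 to 15.2%, beside 3.53%). The GC box GGGCGG stood at 43 (52.4%, beside 56.3%) and TATAAA at 6 (7.32%, beside 9.47%). None of these words contains another, and a match is a description of the sequence and not of binding.

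CpG content differed less between members with and without RNF2 than between other genes with and without it. The observed over expected CpG ratio of the 300 bases had a median of 0.946 at the 42 members with RNF2 within 500 bp of the start and 0.881 at the 24 members without. In all coding genes the medians were 0.844 with RNF2 and 0.322 without. Of the 10 members with none of the 3 features within 2 kb of an end, 9 had a listed start, and their ratios ran from 0.713 at RPL24 and 0.771 at RPS6 to 0.949 at RPS7 and 1.02 at RPL36A. RPL6 had the lowest ratio, 0.170, read at a listed start 7393 bp inside the gene, while its RNF2 peak lay at the outer end. The difference between the medians was not tested.

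Large and small subunit genes were compared next. RNF2 was at 36 of 46 large-subunit genes (78.3%, 63.6 to 89.1%) and 23 of 33 small-subunit genes (69.7%, 51.3 to 84.4%), with median fold enrichments of 3.56 and 3.60. H2AK119ub was at 37 (80.4%) and 26 (78.8%), and YTHDF1 at 12 (26.1%) and 8 (24.2%). Their intervals overlap for each feature. The 39 members of at most 5 kb, given above, had an interval of 69.5 to 94.1% for RNF2, and the longer ones had it at 28 of 44 (63.6%, 47.8 to 77.6%), beside 70.6% of coding genes over 5 kb. No test of these differences was made.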

How the data were processed

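The 4 peak lists were analysed as deposited, 1 per antibody and condition, each merged by the authors from 2 replicates. The submitters' processing notes name the peak callers SICER 1.1 and MACS2 2.1.0, the aligner Bowtie2 2.2.5, Trimmomatic 0.35, Picard and SAMtools 1.3.1, and the build hg38. Their settings, and how reads that map to several places were treated, are not given in the sources used here. Lists of YTHDF1, RNF2 and knockdown YTHDF1 carry a deposited fold enrichment (a ratio), −log10 p, −log10 q, a score and a summit per peak. For H2AK119ub the deposited score has no stated scale and stops at 1000. Fold enrichments are the authors' values and were used within a list. Depth is unknown.

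Peaks (1-based; island ends read as the last base) were intersected by at least 1 bp with windows of 500 bp and 2 kb at both ends of each coding gene of RefSeq GRCh38.p14. Strand, starts and sequences came from a RefSeq promoter table that matched 66 of 83 members. The other 17 had no entry. A gene's start is its outer end in the gene table. The strongest peak is that with the highest −log10 p, or score for islands, and ties went to the lowest coordinate. Shares carry exact (Clopper-Pearson) 95% intervals, shares of 0 a limit of 3 counts over the number of genes, and no test was run. The overlap code was tested on simulated peaks at 200 genes, all 200 of them recovered.

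Members and lists were chosen with earlier results of these data known. Named, apart from a few that are not reported here, were all members with YTHDF1, those with neither RNF2 nor H2AK119ub, the 5 with the highest RNF2 fold, the 5 widest RNF2 peaks, the 5 longest islands, and RPLP0, RPSA, RPS19 and RPL13A. Other members were named after their values were seen. Printed were 2 members of each of 3 classes. Python 3.11.15, pandas 2.3.3 and scipy 1.17.1 were used.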

Additional observations from a re-analysis of the deposited data

How the results depend on the processing

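Of 64 recomputed values for 9 results, 53 stayed within 1.5 times the reported value. Some of these could not move. All RNF2 peaks had a −log10 q of at least 4, so that limit kept the same 61 members. Leaving out readthrough loci kept the same 43 members for the summit position. The knockdown count was 0 in all 11 of its own alternatives, from a list of 226 peaks. Only windows of 5 kb and the gene body with 2 kb either side could have raised it. The others kept the same or fewer peaks, windows or members, so their 0 was fixed in advance. The exceptions among the 64 values follow, with the share of coding genes beside that of members. With windows of 5 kb, YTHDF1 was at 33 members (39.8%, beside 42.3%) and all 3 features at 29 (34.9%, beside 34.9%). At the start alone, counted over 66 members, YTHDF1 was at 11 (16.7%, beside 22.5%) and all 3 features at 8 (12.1%, beside 18.7%). With the peak midpoint in the window, H2AK119ub was at 43 members (51.8%, beside 55.1%) and all 3 features at 9 (10.8%, beside 15.4%). In the better-scoring 50% of each list, RNF2 was at 27 members (32.5%, beside 52.3% of coding genes), all 3 features were at 5 (6.02%, beside 13.1%), and the median island was 14800 bp, against 9400 bp in coding genes. With a −log10 q of at least 4, YTHDF1 and all 3 features were at 0 (beside 2.41% and 2.27%). The cause was not tested. Alternatives for the summit position were chosen after seeing the data and ranged from 76.9% to 83.7% upstream. No paired analysis was possible because the replicates were merged into 1 list per group, and no replicate could be left out. The unknown depth limits what the weak YTHDF1 peaks can show.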

Other observations

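Ribosomal protein genes have left many processed pseudogenes in the genome, intron-less copies of their mRNAs that lack the promoter. Over the 1966 listed ribosomal protein pseudogenes (median length 537 bp), RNF2 peaks lay on 39 (1.98%, exact 95% binomial interval 1.41 to 2.70%), beside 4.72% of 14879 other pseudogenes. H2AK119ub lay on 223 (11.3%, 9.97 to 12.8%), beside 11.8%, and YTHDF1 on 53 (2.70%, 2.03 to 3.51%), beside 3.52%. The other pseudogenes were longer, with a median of 799 bp, and lengths were not matched. With 2 kb either side the order turned for H2AK119ub (17.96%, 16.3 to 19.7%, beside 15.9%) and YTHDF1 (9.05%, 7.82 to 10.4%, beside 8.31%), and RNF2 was at 6.46% (5.41 to 7.64%), beside 7.55%. The knockdown YTHDF1 list had 0 on the ribosomal protein pseudogenes (interval up to 0.187%), beside 0.0269% of other pseudogenes. With 2 kb either side it also had 0 (up to 0.187%), beside 0.0672%. Some pseudogenes lie inside other genes, and how reads with several matches were placed is not given in the sources used here.

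Other genes of ribosomal proteins fall outside the symbol rule. FAU, which encodes a ubiquitin-like fusion to a small-subunit protein, had a 2.78-fold YTHDF1 peak and H2AK119ub without RNF2. RACK1, a scaffold on the small subunit, had RNF2 at 3.68-fold and H2AK119ub. Of the 8 paralogs with an L after the number, 7 had H2AK119ub, 5 RNF2 and 3 YTHDF1, and RPL10L, an intron-less gene active in the testis, had none of them. RPL39L had 3.27-fold, RPL36AL 3.23-fold and RPL3L 3.22-fold YTHDF1 peaks. The 30 members that hold snoRNA genes had YTHDF1 at 10 (33.3%, 17.3 to 52.8%) and the other 53 at 11 (20.8%, 10.8 to 34.1%), beside 29.1% of all coding genes, and these intervals overlap.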
